A study of Mus musculus with 10 samples.

Results

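The libraries described here were made from the non-tuft epithelium of the inflamed pancreas. They are the 5 libraries labelled as pancreatitis non-tuft epithelial cells, chosen by that label, out of 10 libraries in the series, and each of the 12160 genes listed for them was used. The cells were sorted by flow cytometry as Cd45-neg; EpCAM+; Siglec f-neg, which leaves out leukocytes and tuft cells and keeps the other epithelial cells. All 5 came from wild type mice in which caerulein, a cholecystokinin analog that overstimulates acinar cells, had induced pancreatitis, and no untreated pancreas was included. The paper's methods give repeated cycles of caerulein and, before the tissue was taken, a recovery time that could differ between mice. The recovery time of each library is not given in the sources used here. The protocol names male CD1 mice, an outbred stock, while the strain field reads Mixed, and the age was not given in the sources used here. About 100 cells went into a library, the number given for the tuft cells, with an equivalent number stated for the non-tuft cells. Full-length cDNA was amplified by Smart-Seq2, a method for small amounts of RNA, and the cells came from 5 mice.

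The exocrine pancreas is built from acinar cells, which make and store digestive enzymes, and from duct cells, which carry the enzymes away in a bicarbonate-rich fluid. Scattered islets hold the endocrine cells that secrete insulin, glucagon, somatostatin and pancreatic polypeptide. During chronic injury, acinar cells can lose part of their enzyme program and take on features of ducts, a process known as acinar-to-ductal metaplasia, and metaplastic lesions can express genes of the stomach glands. Endocrine cells carry EpCAM too, so a sort on EpCAM without Siglec f does not remove them.

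Values are log2(RPKM + 1), where RPKM is the read number scaled to gene length and library size, and they were quantile normalized by the authors over all libraries of the series. This step gives each library nearly the same set of values, so that a gene's value reflects its rank within the library. The highest value was 15.65 in every library, and genes at the top differ only by the places they exchange. Each library has a floor, its lowest value, at which undetected genes are listed. The floor was 0.17 in library 2 and 0 in the others, and 2395, 3753, 1442, 2349 and 1627 genes stood at it in libraries 1 to 5. Even Gapdh, a gene of glycolysis used in every cell, was listed at 0, 0.17, 0.59, 2.67 and 0.59, so a value at the floor was not read as absence. Over all listed genes, Pearson's r between 2 libraries ranged from 0.685, for libraries 2 and 5, to 0.795, for libraries 3 and 5. These correlations are across genes, which are not independent replicates. In libraries of many cells, fewer cells of a type and less RNA per cell cannot be told apart.

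The marker genes of the gate and of the pancreatic epithelium were found in every library. Epcam, the gene of the sorting antigen, was at 7.56, 7.44, 9.08, 7.90 and 8.53 in libraries 1 to 5, with a mean of 8.10 ± 0.69 (SD, n = 5). Ptprc, which encodes Cd45, did not exceed 1.93 in any library. Clps, which encodes the lipase cofactor colipase, and the amylase Amy2a5 were among the 10 genes with the highest mean. Ptf1a, a transcription factor that maintains acinar identity, was at 4.75, 5.17, 4.03, 4.83 and 4.89, and Cckar, the receptor through which cholecystokinin and caerulein act on acinar cells, was at 6.87, 7.81, 7.05, 7.28 and 7.55. Of the ductal markers, Spp1, which encodes osteopontin, was at 10.60, 8.73, 11.66, 10.20 and 10.43, and the keratin Krt8 was at 7.41, 7.85, 8.63, 8.81 and 9.63. None of the 6 stood at the floor in any library, and acinar and ductal markers were therefore present side by side in each.

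Tuft marker genes stood at different levels in the libraries. Siglecf, the gene of the antigen used to leave out tuft cells, was listed at 0, 1.61, 0, 0 and 0. Dclk1, a kinase widely used as a tuft cell marker, was at 6.84, 8.46, 2.88, 0 and 7.14, so that libraries 1, 2 and 5 stood above libraries 3 and 4 without overlap. The paper reports that Dclk1 is higher in tuft cells but not specific to them, with staining in normal ducts and other non-tuft cells of the pancreas. Its level alone is therefore no measure of tuft cells. The other tuft genes are described after the acinar, ductal and islet genes.

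Genes for digestive enzymes and Reg proteins had most of the highest mean levels. Of the 20 genes with the highest mean, 14 were on the acinar secretory list and 3 belonged to the Reg family. The pair with the highest means, Clps and Ctrb1, held 16.0% of the summed linear values of each library, the top 20 held between 36.7% and 40.8%, and the top 100 held between 53.0% and 56.8%. Clps (chr17:28695155-28697711 in NCBIM37, the assembly also called mm9) ranked first in libraries 1 to 4 and second in library 5, with a mean of 15.56 ± 0.20 (SD, n = 5). Ctrb1, which encodes the protease precursor chymotrypsinogen (chr8:114210410-114214910), took the other place in each library, with a mean of 15.30 ± 0.20. The change of place in library 5 is the whole of the spread of both genes.

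**Figure D1:**
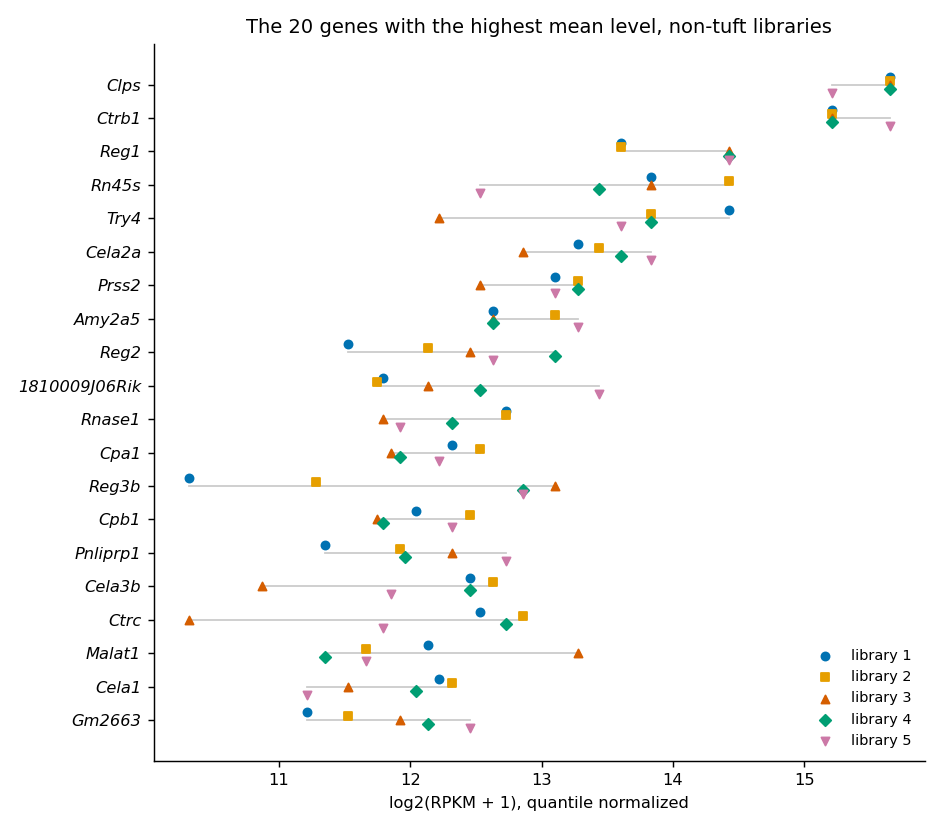
The 20 genes with the highest mean level in the non-tuft libraries. The x axis is log2(RPKM + 1) after quantile normalization, each symbol is 1 library, and the grey line spans the 5 values of a gene. Clps and Ctrb1 exchange the 2 highest values, 15.21 and 15.65, while Ctrc and Reg3b spread over more than 2 units.

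The remaining proteases followed. Try4, a trypsinogen, was at 14.43, 13.83, 12.22, 13.83 and 13.61 in libraries 1 to 5 and was lowest in library 3. Cela2a, an elastase, was at 13.27, 13.44, 12.86, 13.61 and 13.83, and Prss2, another trypsinogen, was at 13.11, 13.27, 12.53, 13.27 and 13.11. The amylase Amy2a5 (chr3:113052094-113061755), which digests starch, was at 12.63, 13.11, 12.63, 12.63 and 13.27. Carboxypeptidase Cpa1 had a mean of 12.17 ± 0.28, carboxypeptidase Cpb1 of 12.07 ± 0.31 and the ribonuclease Rnase1 of 12.30 ± 0.44. Trypsinogens and amylases come in near-identical copies, and how the authors' counting shared reads among them is not stated, so the level of any single copy is uncertain. Try4, Prss2, 1810009J06Rik and Gm2663 all lie in the trypsinogen cluster of chromosome 6, between 40914768 and 41475078 in NCBIM37.

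The other 3 of the top 20 were on neither list. Rn45s, the ribosomal RNA precursor, was at 13.83, 14.43, 13.83, 13.44 and 12.53, and the nuclear non-coding RNA Malat1 was at 12.14, 11.66, 13.27, 11.35 and 11.66. Malat1 was highest in library 3 and Rn45s in library 2. The third, Gm2663, is an unnamed gene model within the trypsinogen cluster and had a mean of 11.85 ± 0.49.

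Acinar genes were the dominant signal, and within them library 3 stood lowest. Of 42 acinar secretory genes on the list, 39 were listed in the table, and their median level was 11.00 against 2.46 over all listed genes. The list took 38.5%, 40.2%, 28.3%, 37.1% and 37.5% of the summed linear values in libraries 1 to 5, a mean of 36.3% ± 4.65 (SD, n = 5). Library 3 had the lowest or tied lowest value of the 5 for 33 of the 39 genes, and library 2 alone had the highest for 22. The same shares over all genes are not given beside these counts. The difference of library 3 was uneven over the enzymes. The triglyceride lipase Pnlip was at 11.85, 12.04, 8.01, 11.53 and 11.03, the zymogen granule protein Zg16 at 10.97, 11.03, 7.97, 10.75 and 9.55, and the phospholipase Pla2g1b at 10.64, 10.82, 7.60, 9.25 and 8.49. All 3 were lower in library 3 than in every other library. In contrast, Amy2b had nearly the same value everywhere, 11.66, 11.79, 11.96, 11.75 and 11.53, as did the kallikrein Klk1, with 10.52, 10.87, 10.52, 10.97 and 10.75. Pnliprp1, a relative of pancreatic lipase, was higher in library 3 than in libraries 1, 2 and 4, with 11.35, 11.92, 12.32, 11.96 and 12.73.

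One pair of enzymes showed a value of 0 beside high ones. Cela3a, an elastase, was at 9.61, 10.24, 0, 9.91 and 0, while its close copy Cela3b was at 12.46, 12.63, 10.87, 12.46 and 11.85. Gm5409, a trypsinogen pseudogene at chr6:41365309-41369591, behaved likewise, with 10.28, 10.36, 0, 0 and 0. Both belong to sets of near-identical sequences, and whether reads were assigned to a copy in some libraries only was not tested.

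Acinar transcription factors were present at moderate levels. PTF1, the complex that Ptf1a forms with a partner of the Rbpj type, switches on digestive enzyme genes. All 5 factors on the list were above the floor in every library, with a median level of 4.73. Bhlha15, also called Mist1, which organizes the secretory apparatus, was the highest and stood at 5.85, 6.14, 6.37, 7.91 and 6.89. Rbpjl, the acinar partner of Ptf1a, was at 6.17, 5.72, 6.31, 5.53 and 6.13, a range of less than 1. Nr5a2, a nuclear receptor that cooperates with PTF1, was at 4.47, 5.89, 3.22, 5.20 and 3.15 and was lower in libraries 3 and 5 than in the others. Gata4 was at 3.32, 5.16, 4.26, 3.53 and 4.32. No library was lowest for all of them, so the low enzyme values of library 3 were not matched by every factor. The CCK receptor gene Cckar had one of the smaller spreads among acinar genes, 7.31 ± 0.38 (SD, n = 5). The water channel Aqp12, which is restricted to acinar cells, was at 5.89, 7.10, 3.14, 5.59 and 5.14 and was lowest in library 3. Rab27b, a GTPase of secretory granules, was at 6.64, 6.39, 6.09, 3.02 and 6.19, low in library 4 alone.

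To show the regulatory sequence of the most abundant enzyme genes, the 250 bases before the start of the 4 highest acinar secretory genes with an entry in RefSeq's promoter table (GRCm38.p6) are printed 5′ to 3′, beside those of Pgc, the gene with the largest spread. Capitals mark the E-box CACCTG (or CAGGTG, its other strand) and the TC-box TTTCCC (or GGGAAA), the letters of the paired motif that PTF1 is known to bind.
Ctrb1, chr8:111691011-111691260, minus strand: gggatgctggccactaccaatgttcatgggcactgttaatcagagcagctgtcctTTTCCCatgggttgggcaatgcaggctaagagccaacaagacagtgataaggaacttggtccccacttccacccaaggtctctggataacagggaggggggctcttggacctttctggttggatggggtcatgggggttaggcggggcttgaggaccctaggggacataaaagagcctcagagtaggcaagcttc
Try4, chr6:41302022-41302271, plus strand: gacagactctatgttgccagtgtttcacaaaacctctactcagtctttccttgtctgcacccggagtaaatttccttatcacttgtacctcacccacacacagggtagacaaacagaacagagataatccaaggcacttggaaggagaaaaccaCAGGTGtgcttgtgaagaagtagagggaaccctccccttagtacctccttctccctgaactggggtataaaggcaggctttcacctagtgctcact
Cela2a, chr4:141826006-141826255, minus strand: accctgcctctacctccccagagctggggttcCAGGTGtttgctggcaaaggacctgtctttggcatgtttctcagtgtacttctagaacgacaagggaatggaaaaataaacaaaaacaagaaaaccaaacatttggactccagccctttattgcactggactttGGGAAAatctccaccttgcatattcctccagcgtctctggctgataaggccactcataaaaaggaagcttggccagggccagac
Prss2, chr6:41521526-41521775, plus strand: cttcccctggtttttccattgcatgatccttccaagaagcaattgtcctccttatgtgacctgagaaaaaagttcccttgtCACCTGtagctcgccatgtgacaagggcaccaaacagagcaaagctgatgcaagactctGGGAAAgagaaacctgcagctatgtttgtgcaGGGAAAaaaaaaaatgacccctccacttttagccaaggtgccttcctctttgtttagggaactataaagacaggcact
Pgc, chr17:47726592-47726841, plus strand: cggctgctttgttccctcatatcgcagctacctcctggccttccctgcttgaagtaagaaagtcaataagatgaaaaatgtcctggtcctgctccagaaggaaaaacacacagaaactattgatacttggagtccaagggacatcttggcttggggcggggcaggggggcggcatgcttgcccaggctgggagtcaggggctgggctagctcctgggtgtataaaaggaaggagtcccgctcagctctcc

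In these windows Cela2a held 1 E-box and 1 TC-box, and Prss2 held 1 E-box and 2 TC-boxes. Try4 held 1 E-box with no TC-box, Ctrb1 held 1 TC-box with no E-box of these letters, and Pgc held neither. Only CACCTG and its other strand were searched, so other forms of the E-box were not counted. The letters cagctg, printed shortly before the TC-box of Ctrb1, are such a form. Over the full windows of the table, which run from 250 bases before to 50 after the start, 17 of 32 promoters of 31 acinar secretory genes held the E-box, or 53.1%, against 20.2% of all 32851 promoters. For the TC-box the shares were 31.2% and 25.2%, and for both together 21.9% and 4.86%. The 2 motifs can share at most 1 letter, and copies of 1 gene, such as the trypsinogens, have related promoters. A match is a description of the letters and not a site.

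Reg proteins are secreted lectin-like proteins that acinar cells make in large amounts in pancreatitis. The 6 listed members took 3.14%, 3.83%, 6.72%, 7.51% and 7.05% of the summed linear values in libraries 1 to 5. Reg1 was at 13.61, 13.61, 14.43, 14.43 and 14.43 and was the gene with the third highest mean. Reg3b was at 10.31, 11.28, 13.11, 12.86 and 12.86, and Reg3g, an antibacterial lectin, at 5.32, 4.81, 7.69, 8.64 and 8.54. For each of these genes libraries 3, 4 and 5 were above libraries 1 and 2 without overlap, and the share of all genes with this order is not given here. Reg3d and Reg3a did not follow this order. Reg3d was lowest in library 3, with 8.71, 9.42, 7.73, 9.79 and 9.24, and Reg3a, at 8.57, 10.20, 9.32, 11.21 and 11.35, was lower in library 3 than in library 2.

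Ductal genes were present in every library, at levels below the enzymes. Of 27 genes on the list, 26 were listed, 23 of them above the floor in every library, with a median level of 5.24. The list took 0.565%, 0.312%, 1.26%, 0.666% and 0.847% of the summed linear values in libraries 1 to 5. Spp1 was the highest of them, with a mean of 10.32 ± 1.05 (SD, n = 5). The keratin partners Krt8 and Krt18 had means of 8.47 ± 0.86 and 9.25 ± 0.76, and Sox9, a transcription factor of ducts and of metaplasia, was at 7.19, 7.23, 7.70, 7.70 and 6.50. Keratin 19 is more restricted to ducts than keratin 8 or 18, which acinar cells also make. Krt19 was at 3.57, 3.91, 6.23, 6.72 and 7.12, and libraries 3, 4 and 5 stood above libraries 1 and 2 without overlap. The mucin Muc1 was at 5.27, 3.70, 7.17, 6.64 and 6.80, and Car2, which makes bicarbonate, at 6.51, 5.58, 8.53, 7.32 and 7.70. Aqp5, a water channel, was at 5.46, 5.25, 10.08, 7.62 and 6.68, with library 3 far above the others. Not all ductal genes had the order of Krt19. Dcdc2a was at 6.33, 6.60, 4.59, 5.13 and 3.93 and Ehf, an epithelial transcription factor, at 6.24, 6.40, 5.99, 5.45 and 5.92, and both were higher in libraries 1 and 2 than in the others. Pkhd1, the gene of polycystic kidney and hepatic disease, was at 4.71, 3.93, 3.30, 4.07 and 0.42. Cftr, the chloride channel mutated in cystic fibrosis, was at 4.0, 2.93, 3.61, 3.31 and 0.92, and the secretin receptor Sctr at 0.78, 2.51, 1.52, 1.26 and 0. Pkhd1, Cftr and Sctr were lowest in library 5, the library with the highest Krt8, Krt18 and Krt19.

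**Figure D2:**
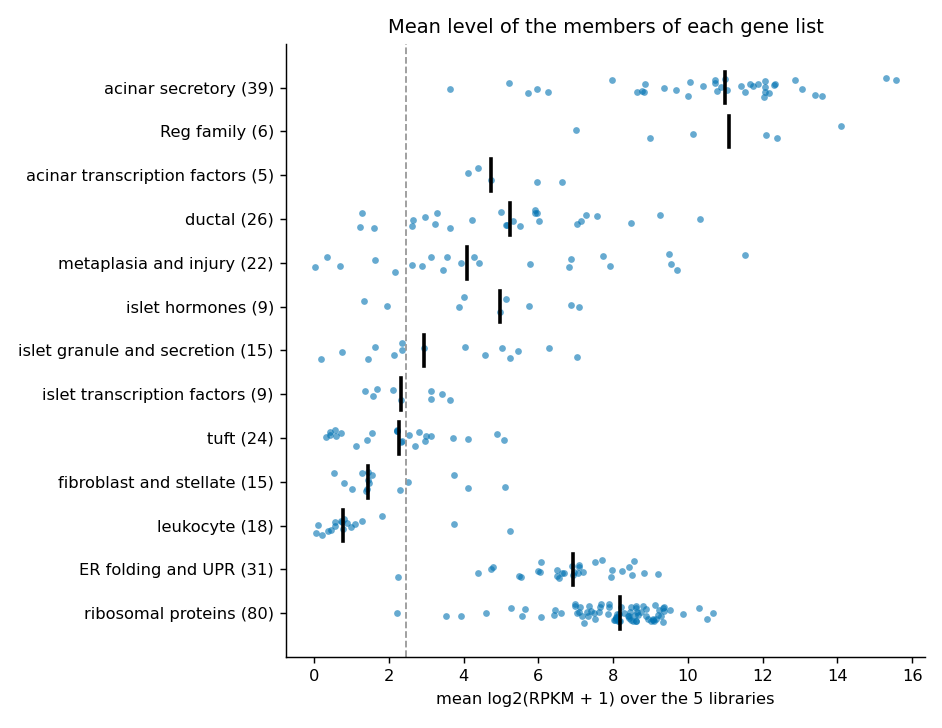
Mean level of each listed member of 13 gene lists. The x axis is the mean log2(RPKM + 1) over the 5 libraries, each point is a gene, the number of genes is in parentheses, the black bar is the list median and the dashed line the median of all listed genes, 2.46. Acinar secretory and Reg genes lie highest, and leukocyte, fibroblast and tuft genes lie mostly at or below the dashed line.

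Several genes of stomach glands set libraries 3, 4 and 5 apart from libraries 1 and 2. Pgc (chr17:47863791-47871432), the precursor of a pepsin, was at 1.27, 0.17, 13.44, 9.98 and 9.18 in libraries 1 to 5. Its SD, 5.80, was the largest among genes with a mean of at least 4. Muc6, the gel-forming mucin of gastric glands, was at 0.99, 3.63, 11.57, 9.30 and 8.82, and Gkn3, a gastrokine, at 6.43, 6.46, 13.61, 10.31 and 10.87. For all 3, libraries 3, 4 and 5 were above libraries 1 and 2 without overlap, and library 3 was the highest. The same order of the 2 sets of libraries was found for the pepsinogen Pga5, at 3.94, 0.17, 11.28, 10.24 and 6.98, and for Gif, the vitamin B12 carrier intrinsic factor, at 0, 2.86, 9.73, 6.45 and 7.54. A4gnt, the enzyme that builds the sugar carried by Muc6, was at 0, 0.17, 8.36, 4.77 and 5.86, and the aspartic protease Ctse was at 3.55, 0.17, 8.17, 5.50 and 6.92. Gif, A4gnt and Ctse were chosen after their values were seen.

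Other stomach genes did not share this pattern. Tff2, a trefoil peptide secreted with Muc6, was at 9.04, 9.69, 12.04, 9.65 and 8.12 and was present in every library. Gkn1 and Gkn2, gastrokines of the stomach surface, were at the floor in 5 and 4 libraries, and Atp4a, the acid pump of parietal cells, did not exceed 1.39. Cym, the milk-clotting protease chymosin, was at 8.24 in library 5 and at 1.23 or below in the others.

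Markers of metaplasia and injury were in part high everywhere. The metaplasia and injury list, which holds Pgc, Muc6, Gkn3 and Tff2, took 0.664%, 0.571%, 7.20%, 1.58% and 1.73% of the summed linear values. Clu, which encodes the chaperone clusterin, had a mean of 11.54 ± 0.89 (SD, n = 5), and the surface protein gene Cd24a one of 9.50 ± 0.78. S100a6, a calcium-binding protein, was at 0, 0.17, 7.53, 6.69 and 7.64, again with libraries 3, 4 and 5 above the others. The number of genes at the floor was 2395 and 3753 in libraries 1 and 2 and 1442, 2349 and 1627 in libraries 3, 4 and 5. It was thus higher in libraries 1 and 2, but nearly equal in libraries 1 and 4. Its part in these values was not tested.

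**Figure D3:**
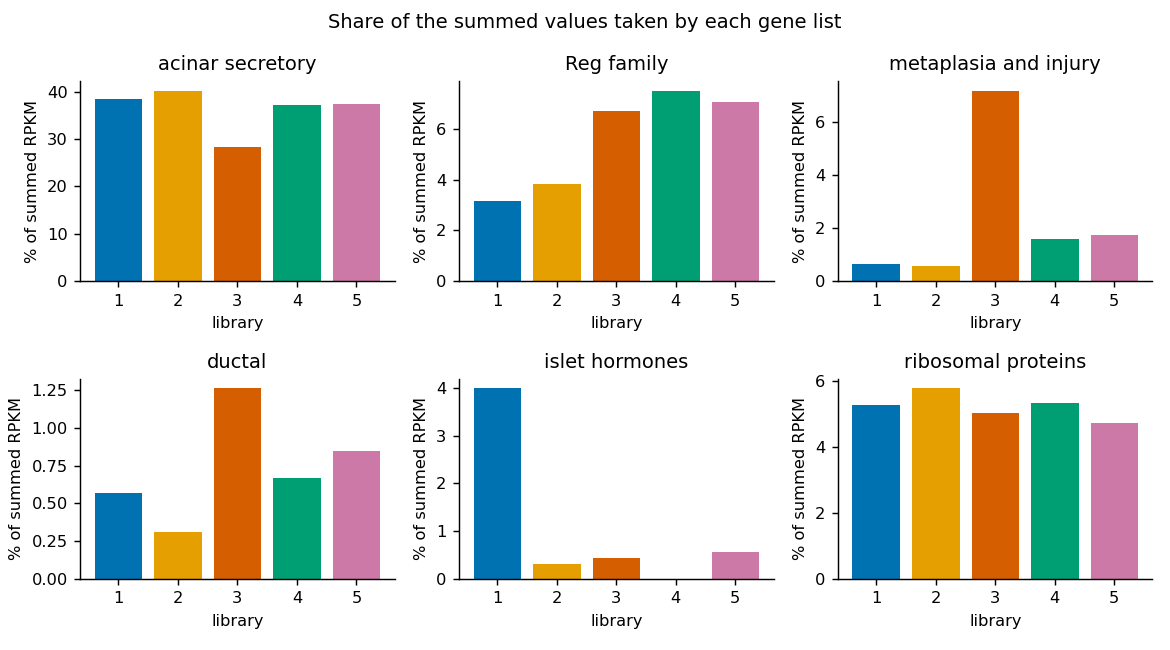
Share of the summed linear values, in percent, taken by 6 gene lists in each library. Each bar is 1 library, every y axis starts at 0 and its scale differs between panels. Library 3 has the lowest acinar secretory share, 28.3%, and the highest share of the metaplasia and injury list, 7.20%, and library 1 the highest share of islet hormones, 3.99%.

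Islet genes differed between libraries hormone by hormone. The 9 hormone genes on the list took 3.99%, 0.314%, 0.436%, 0.000422% and 0.559% of the summed linear values in libraries 1 to 5, a mean of 1.06% that was 0.327% without library 1. The 2 insulin genes, which are close copies of each other, led in library 1. Ins1 was at 13.44, 8.25, 3.89, 0.48 and 2.64, and Ins2 at 12.86, 7.78, 2.96, 0 and 2.08. Iapp, the amyloid peptide that beta cells release with insulin, was at 9.89, 3.06, 5.31, 0 and 1.84. G6pc2, a beta cell phosphatase, was at 7.04 in library 1 and at the floor in the others. Beta cell genes were thus highest in library 1, with library 2 next for both insulins.

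The other hormones had different orders. Sst, which encodes somatostatin, was at 10.87, 3.06, 11.10, 1.02 and 9.38, and was high in libraries 1, 3 and 5. Gcg, which encodes glucagon, was at 9.61 in library 5 and at the floor in the other 4. Ppy, pancreatic polypeptide, was at 7.15, 2.75, 4.29, 0.95 and 9.76, and its relative Pyy, peptide YY, at 7.56, 9.89, 7.30, 0 and 9.65. The hunger hormone gene Ghrl was at 9.35, 7.97, 0.35, 0 and 1.67. Gip, an incretin usually made by cells of the upper gut, was chosen after its values were seen and stood at 10.20, 0.17, 0, 0 and 7.97.

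Library 4 was the lowest for most of the endocrine list. In it, 9 of the 9 hormones, 13 of 15 granule and secretion genes and 7 of 9 transcription factors had their lowest or tied lowest value of the 5 libraries. Of all listed genes, 19.3% stood at the floor in library 4, and each of them was lowest or tied lowest there. The full share of all genes that were lowest in library 4 is not given beside these counts. Scg5, a chaperone of prohormone processing, was at 9.21, 7.43, 7.34, 0 and 7.42, and the granule protein gene Chga at 6.72, 3.51, 6.54, 0 and 6.04. Chgb was at 7.50, 4.51, 6.62, 0 and 6.45 and Scg3 at 7.90, 6.36, 6.21, 0 and 5.77. Each was at 3.51 or above in libraries 1, 2, 3 and 5 and listed at 0 in library 4. The endocrine transcription factor Neurod1 was at 4.83, 5.25, 3.05, 0 and 2.47, Isl1 at 6.09, 4.59, 5.18, 0 and 2.28 and Rfx6 at 5.29, 2.40, 3.83, 0 and 4.04. The list of endocrine factors also holds Hhex, which ducts express, and it did not move with them, at 3.30, 3.57, 3.50, 3.80 and 2.92. Ttr, the transthyretin gene, was likewise present throughout, at 7.70, 7.09, 7.61, 7.18 and 5.62. Over hormones, granule genes and factors together, the median level was 5.29, 3.51, 3.64, 0 and 2.64 in libraries 1 to 5.

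Many but not all tuft genes formed another split, between libraries 1, 2 and 5 and libraries 3 and 4. Of 25 tuft genes on the list, 24 were listed, and their median was 2.65, 3.84, 0, 0 and 4.36 in libraries 1 to 5. Rgs13, a regulator of G protein signaling, was at 5.55, 5.61, 0.02, 0 and 7.43, and the kinase gene Bmx at 6.50, 4.98, 2.06, 0 and 7.05. Trpm5, the cation channel of chemosensory cells, was at 2.49, 4.32, 0, 0 and 4.31. Pou2f3, the master regulator of tuft cells, was at 3.13, 3.07, 0, 0 and 0.92. All 4 genes were higher in libraries 1, 2 and 5 than in libraries 3 and 4. The list took at most 0.157% of the summed linear values of a library. Lrmp followed the same order with a smaller spread, at 5.09, 4.83, 4.0, 4.34 and 6.23. Other members of the list did not follow it. Tas1r3, a taste receptor subunit, was at 0, 0.17, 0.39, 4.16 and 2.98, and Hpgds was at 2.68, 4.13, 0, 3.13 and 4.91. Il25, Gfi1b and Il17rb were above the floor in library 5 only, and Siglecf and Chat in library 2 only. Gnat3 was at the floor in library 2 and Plcb2 in library 1. The share of all genes with the order of Rgs13 is not given here.

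Genes of non-epithelial cells were mostly at or near the floor, with library 5 apart. The median of 18 listed leukocyte genes was 2.32 in library 5 and at most 0.17 in the others. The B cell receptor genes Cd79a and Cd79b were at 5.23 and 6.22 in library 5 and at the floor in the other 4. For the fibroblast and stellate list, 13 of 15 genes were highest in library 5, without a share over all genes beside the count. Library 5 gave the list 0.205% of its summed linear values, and the median was 4.93 there and at most 0.27 in the other libraries. The matrix proteoglycan Dcn was at 1.60, 0.17, 0, 2.41 and 8.34, the collagen Col3a1 at 0, 0.17, 0.28, 0 and 7.26, and Dpt and Lum, matrix proteins of fibroblasts, were at 7.03 and 6.84 in library 5 and at the floor in the others. Other members of these lists were above the floor in every library. Cd14, the highest leukocyte gene, was at 4.85, 2.72, 5.79, 7.08 and 5.79, and Lcp1 at 4.18, 4.55, 4.92, 0.89 and 4.20. Of the fibroblast and stellate list, Sparc was at 5.37, 3.89, 4.28, 4.57 and 7.39 and Rgs5 at 4.53, 2.52, 5.21, 5.76 and 2.52. Cd14 and Rgs5 were highest in library 4 and Lcp1 in library 3. Endothelial genes had a median of 1.32, and 5 of 12 were listed. None of the 6 genes on the erythroid list was listed. The part of these cells in the differences between libraries was not tested.

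Library 4 held genes of the intestinal lining that were at the floor or at lower values in the others. This list was drawn up after the values were seen. It holds Defa24, Tff3, Fcgbp, Defa-rs7 and Clca4b, which had been named for standing highest in library 4. Of 18 listed genes, 17 were highest in library 4, and the list took 0.288% of its summed linear values, against at most 0.0140% in any other library. Both the count and the share follow in part from that choice, and no share over all genes is given beside the count. Tff3, a trefoil peptide of goblet cells, was at 0, 1.76, 0, 9.08 and 0, and Fcgbp, a protein of goblet cell mucus, at 0.96, 2.23, 1.17, 8.51 and 1.82. The defensin gene Defa24 was at 7.84 in library 4 and at the floor elsewhere. Intestinal alkaline phosphatase, Alpi, was at 0.52, 2.17, 0, 6.08 and 0, Clca1 at 0, 2.45, 0, 6.13 and 0, and the intestinal mucin Muc2 at 4.37 in library 4 and at the floor elsewhere. Cdx1, an intestinal transcription factor, was at the floor in all 5 libraries. Mesothelin, Msln, stood at 6.64 in library 3 only, and the lectin gene Itln1 was at 0, 4.54, 10.36, 1.90 and 0.

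**Figure D4:**
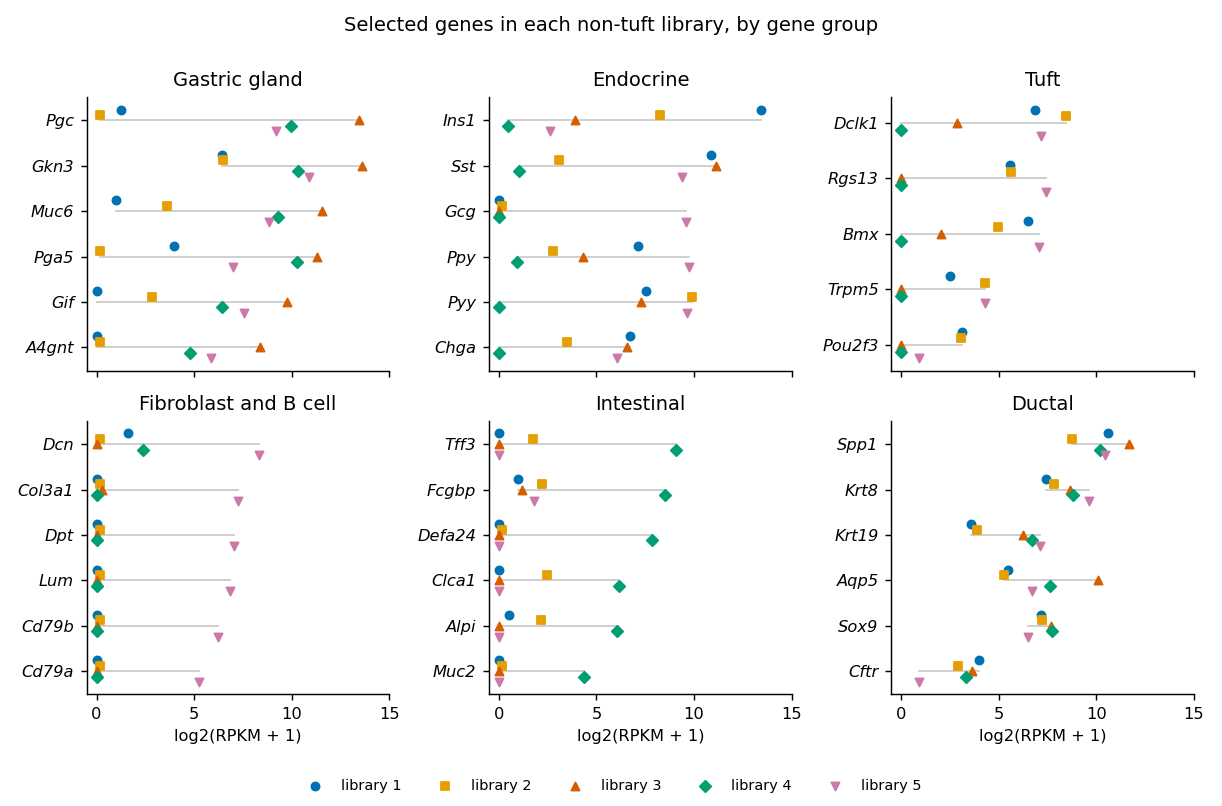
Values of selected genes in each library, in 6 groups. The x axis is log2(RPKM + 1), each symbol is 1 library and the grey line spans the 5 values. Gastric gland genes are high in libraries 3, 4 and 5, tuft genes in libraries 1, 2 and 5, endocrine genes are lowest or tied lowest in library 4, fibroblast and B cell genes are high in library 5 alone, and intestinal genes in library 4 alone.

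How much genes varied overall was counted among the 2886 genes with a mean of at least 4. A gene was called stable when its highest and lowest library differed by at most 1 log2 unit, and variable when they differed by at least 4. By this rule 670 genes, 23.2%, were stable and 133, 4.61%, were variable. Without library 2, over the other 4, the counts were 1094 and 75. The authors had already removed genes whose RPKM varied little over the series, which takes out low genes more than high ones. The median SD was 0.613 log2 units for these genes and 0.896 for all listed genes. Spread narrowed with level up to a mean of 10. It had a median of 0.697 for means of 4 to 6, 0.473 for 6 to 8, 0.339 for 8 to 10 and 0.501 at 10 and above.

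Ribosomal protein genes had the smallest median SD of the gene lists. Of 77 with a mean of at least 4, 57 were stable, or 74.0%, beside 23.2% of all genes, and none was variable. Their median SD was 0.261, and the median level of the list was 8.18. Over all genes the stable share was 15.2% for means of 4 to 6, 39.1% for 6 to 8 and 61.3% for 8 to 10. The 23.2% is therefore not the share at the level of this list. The 10 smallest SDs among genes with a mean of at least 6 belonged to Ndufb9, Rpl18, Rpl19, Polr2f, Rps7, Rpl36al, Srsf6, Psme1, Rpl10a and Timm10b, and they ran from 0.0693 to 0.114. Of these, 4 (Rpl18, Rpl19, Rps7 and Rpl10a) were counted as ribosomal protein genes on the list, and Rpl36al is one by its name. Ndufb9, a subunit of respiratory complex I, was at 8.93, 8.87, 8.86, 8.77 and 8.94, and Polr2f, a subunit shared by RNA polymerases, at 6.91, 6.84, 6.80, 7.05 and 6.90. Psme1, a proteasome activator, was at 7.05, 6.86, 7.05, 6.83 and 7.03. The highest and lowest library differed by 0.172 log2 units for Ndufb9, 0.251 for Polr2f and 0.223 for Psme1.

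Genes of protein folding in the endoplasmic reticulum, on which enzyme secretion depends, had a median level of 6.92. All 31 on the list were listed, and 30 had a mean of at least 4. Of these, 6 were stable, a share of 20% beside 23.2% of all such genes, and none was variable. Among all genes with means of 6 to 8, 39.1% were stable, so the share of the list was below that of genes near its median level. Hspa5, the chaperone BiP, was at 8.69, 8.86, 8.32, 7.79 and 8.88, and Xbp1, a transcription factor of the unfolded protein response, at 6.57, 6.15, 7.25, 7.09 and 7.42. Ddit3, a stress factor also called Chop, was at 3.37, 6.37, 3.66, 3.90 and 4.60, and was highest in library 2. Among immediate early genes, which respond within minutes to stress and to tissue handling, Fos had an SD of 0.26, with 6.22, 6.48, 6.90, 6.42 and 6.30, whereas Jun and Ier2 were lowest in library 1, with 4.92, 6.80, 7.00, 6.99 and 6.97 for Jun and 5.90, 7.69, 7.49, 7.28 and 7.64 for Ier2. In the acinar secretory list 11 of 38 genes were stable, or 28.9%, beside 23.2% of all such genes. Cela3a and Pnlip were the 2 variable ones, beside 4.61% of all such genes, so that both counts were near the background. The acinar secretory list had a median level of 11.00. Of all genes with means of 10 and above, 34.1% were stable and 2.27% variable.

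**Figure D5:**
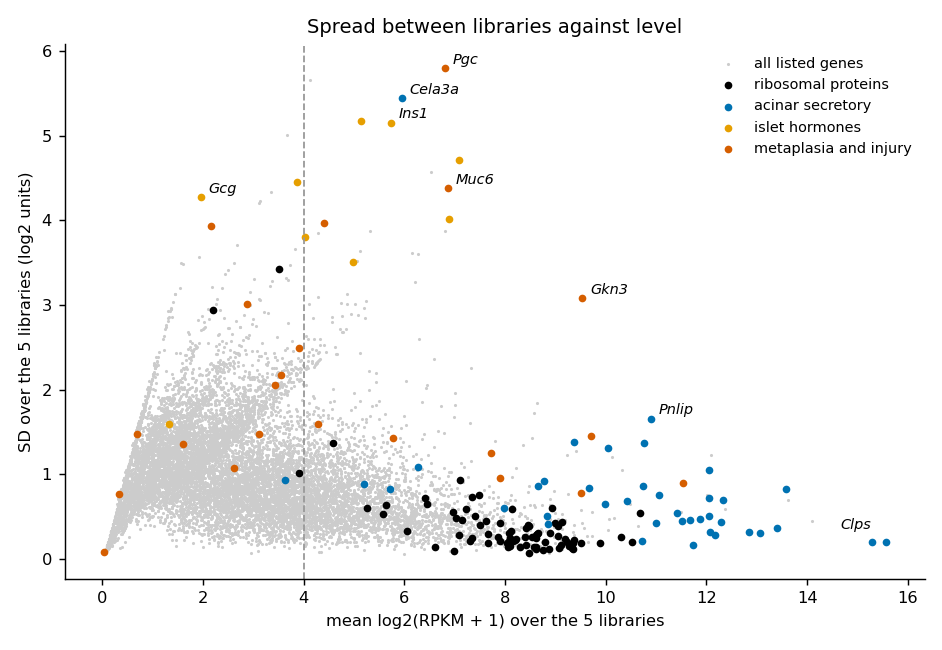
Spread between libraries against level for all listed genes. The x axis is the mean and the y axis the SD of log2(RPKM + 1) over the 5 libraries, and the dashed line marks a mean of 4. Ribosomal protein genes lie near the bottom, apart from a few with low means, acinar secretory genes lie low at high means, apart from Cela3a, and islet hormones, Pgc, Muc6 and Gkn3 lie high above the other genes at their level.

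Of the 133 variable genes, 62 stood at the floor in at least 1 library, and 58 in exactly 1, which alone makes a gene with this mean variable. The other 71 were above the floor in all 5. Each gene was described by the libraries that lay above the midpoint of its range, which gave 21 patterns, and the 3 commonest held 54.1% of the genes. The commonest pattern, 32 genes, was a low value in library 2 alone, and among them were Stmn1, which encodes a microtubule regulator, and S100g, a calcium-binding protein. A low value in library 4 alone was found for 20 genes, with the endocrine genes Chga, Chgb, Scg3, Scg5, Pcsk2, Cpe and Pyy among them. High values in libraries 3, 4 and 5 were found for 20 genes as well, with Pgc, Muc6, Gkn3, Pga5, Gif, Ctse and S100a6 among them and also Anxa10, at 3.29, 2.20, 7.11, 5.08 and 7.89, and Cxcl17, at 2.84, 4.96, 7.48, 7.75 and 7.12. Of the rest, 12 genes were low in library 1 alone, 9 in library 5 alone, and 7, with Dclk1 and Bmx among them, were high in libraries 1, 2 and 5.

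Of the islet list 13 genes had a mean of at least 4 and 12 of them were variable, beside 4.61% of all genes. Ttr was the exception. The metaplasia and injury list had 5 variable genes of 11 (Pgc, Muc6, Gkn3, S100a6 and Cd44), and the ductal list had 2 of 17, Aqp5 and Cldn4. The claudin Cldn4 was at 4.73, 2.79, 5.49, 5.42 and 7.40. These shares depend on how many genes passed the minimum of 4, and a list's lower members were not counted. Some members, such as Iapp, at 9.89, 3.06, 5.31, 0 and 1.84, passed it only through the libraries where they were high. For such a gene a wide range follows in part from the minimum, so the shares cannot be read as a result about the lists.

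Single libraries also held genes of their own. A gene was counted as led by a library when its value there was at least 6 and at least 3 above each of the others, which gave 8, 5, 4, 7 and 15 genes for libraries 1 to 5. The counts of genes at least 2 below all the others, where those were at 4 or more, were 21, 85, 9, 33 and 13. Library 2, which had the most genes at the floor, thus had the most genes low on its own. The genes that stood furthest above the others included Ins1, Ins2, Iapp and G6pc2 in library 1, the glutathione transferase Gstp2, at 7.82, in library 2, Itln1 and Msln in library 3, Defa24, Tff3 and Fcgbp in library 4 and Gcg, Cym, Col3a1, Dpt and Lum in library 5.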

How the data were processed

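The 5 libraries of sorted non-tuft epithelial cells were grouped by their sample titles. Per the labels and the paper's methods, the authors mapped single-end reads to mm9 with HISAT2, used StringTie and Ballgown to obtain RPKM per gene (versions not given in the sources used here), removed genes whose RPKM variance over the series was under 1 and quantile normalized the log2 values with preprocessCore. The deposited log2 values, 12160 genes by library, were used as they stand. In 3 further columns the authors deposited a comparison of the sorted groups, given by the fold ratio, the p-value and the adjusted p-value, and these were not used. The table holds 1 repeated symbol and 18 entries changed into dates, which were kept in the counts and not named.

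For each gene the mean, SD and range over the libraries were computed with Python 3.11.15, numpy 2.4.6 and pandas 2.3.3, and plots were drawn with matplotlib 3.10.9. Linear values are 2 to the log2 value, minus 1, and a list's share is their sum over the list as a percent of the sum over all genes. Because the libraries form 1 group, no test was made and errors are SDs between libraries. Read counts were not used here, so depth is unknown and no counting interval is given. The counting of stable and variable genes was tested on simulated data. Gene positions were read from GENCODE models on NCBIM37 (91.6% of symbols matched), and promoters from RefSeq's table for GRCm38.p6, which held 31 of the 39 listed acinar secretory genes.

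The members and the 26 gene lists were chosen with earlier results of these data known, and 2 more lists, of gastric gland and intestinal genes, after the values were seen. Named genes are the 6 markers, the 20 highest means, the highest members of each list (all hormones and transcription factors), the 10 smallest and 10 largest SDs, and the 5 genes standing highest in each library, apart from some that are not reported here. Further genes were named after their values were seen: Gapdh, Epcam, Siglecf, Ptprc, Gm5409, Gip, Anxa10, Cxcl17, S100g, lower members of the fixed lists and members of the added lists. Alternatives were other constants before the log, other level and range limits, centring on ribosomal protein genes, the floor set to 0, each library left out, enzyme copies left out and, added after seeing the data, genes at the floor left out.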

Additional observations from a re-analysis of the deposited data

Results flagged for a closer look

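In each of 183 gene values, list medians and list shares over the 5 libraries, the highest or lowest library was compared with the rest. A value was picked out when its gap to the nearest other library was more than 0.71 of the whole range. In this way 42 were picked out, with 14 in library 5, 13 in library 4, 6 in library 3, 5 in library 1 and 4 in library 2. A gene at the floor in 4 libraries meets this limit whatever its value in the other. Chance picks out about 1 in 20 groups, but many of these genes were named because they stood apart in 1 library or spread widely, so that the count of 42 cannot be read against that rate. The floor of library 2 was taken as 0. No explanation was weighed for these values.

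In library 5, several non-epithelial genes stood above their values in the other libraries, with Dcn at 8.34, Col3a1 at 7.26, Dpt at 7.03, Lum at 6.84, Cd79b at 6.22 and Cd79a at 5.23. The fibroblast and stellate list had a median of 4.93 and a share of 0.205% there, the leukocyte list a median of 2.32 and the interferon response list a median of 1.51. The hormone gene Gcg, at 9.61, and the gastric protease gene Cym, at 8.24, stood out in the same library. Clps, at 15.21, and Ctrb1, at 15.65, were picked out in library 5 only because they exchanged their places there.

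In library 4, the intestinal list took 0.288% of the summed linear values, and the intestinal genes Tff3, at 9.08, Fcgbp, at 8.51, Defa24, at 7.84, and Muc2, at 4.37, stood high. Pyy, Scg3 and Scg5 were at 0 there, Pcsk2 was at 0.43, Cpe at 1.65 and Rab27b at 3.02, each below the other libraries. Gapdh, at 2.67, and the ribosomal gene Rpl19, at 7.14, were also highest in library 4.

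In library 3, the metaplasia and injury list took 7.20% and the gastric gland list 6.24% of the summed linear values, and the acinar secretory list took 28.3%, the lowest of the 5. The enzyme genes Pnlip, at 8.01, and Prss2, at 12.53, were low there, and the mesothelial gene Msln, at 6.64, was high.

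In library 1, the islet hormones took 3.99% and the whole islet list 4.35%, G6pc2 was at 7.04, and the immediate early genes Jun, at 4.92, and Ier2, at 5.90, were below the other libraries. In library 2, Gstp2 was at 7.82, Gkn2 at 1.70 and Siglecf at 1.61, above a floor in all other libraries, and Stmn1 was at the floor, taken as 0.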

How the results depend on the processing

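The counts of stable and variable genes depended on the limits. With 10 added in place of 1 before the log, 2082 genes were stable and 60 variable, and the median SD was 0.358. With a mean of at least 2, 903 genes were variable. With a mean of at least 6, 356 were stable and 24 variable, and the median SD was 0.449. With no limit on the level, 1633 were stable and 1234 variable. A range of at most 0.5 left 115 stable genes and one of at most 2 gave 1974. A range of at least 3 gave 308 variable genes and one of at least 6 gave 54. Without genes at the floor in any library, 71 were variable. Leaving out each library in turn gave 900 to 1094 stable and 75 to 99 variable genes, since a range over fewer libraries is smaller, and library 2 moved both counts most. The median level of leukocyte genes was -1.69 with 0.1 added and 3.54 with 10 added. Without amylase and trypsinogen copies, the acinar secretory share was 27.3%. The islet hormone share was 0.327% without library 1 and ran to 1.33% when another library was left out. Of 135 genes named, the mean moved by more than its SD for 11 with 0.1 added and for 18 with 10 added. Leaving out 1 of 5 libraries, setting the floor to 0 or centring cannot by construction move a mean by its SD, and so tested nothing here. No paired analysis was possible because the values come from 1 group and from no test between groups. Depth is unknown, quantile normalization ties a value to its rank, and the libraries of about 100 cells hold no replicate of the same mouse.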

Other observations

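Cell cycle genes were present at low levels in every library. Of 23 on the list, 22 were listed, with a median of 2.37, close to the 2.46 of all listed genes. Ccna2, a cyclin of S phase and mitosis, was at 3.91, 3.33, 4.52, 4.20 and 4.05 in libraries 1 to 5, and Mki67, which marks cycling cells, at 3.06, 3.49, 4.54, 1.77 and 0.96. The chromosome-untangling enzyme gene Top2a was at 4.42, 4.24, 1.69, 0 and 2.25, so that these genes did not share 1 order of libraries.

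Interferon response genes were near the floor, with a median of 0.72 over 11 listed genes. Ifitm3, which epithelial cells make without interferon too, was the exception, at 8.43, 8.52, 8.74, 9.51 and 9.23. Of the MHC class II list, all 7 genes were listed. Cd74, the invariant chain that guides class II molecules, was at 5.75, 4.25, 7.90, 4.53 and 7.57, and H2-Ab1 at 0, 2.58, 4.03, 2.13 and 5.74. Both were higher in libraries 3 and 5 than in the others, but H2-Eb1, at 2.92, 2.68, 1.40, 0 and 3.05, and H2-DMb1, at 2.18, 3.98, 3.93, 2.79 and 2.56, were not. The median of the leukocyte genes was 2.32 in library 5 and 0.04 in library 3.

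Among housekeeping genes, Eef1a1 had a mean of 10.06 ± 0.48 (SD, n = 5), Actb one of 8.59 ± 0.62 and Ppia one of 7.52 ± 0.64, whereas Gapdh had one of 0.80 ± 1.07. The translation and cytoskeleton genes were thus within the range of the abundant genes, and Gapdh, which is abundant in most cells, was not. The cause was not tested. Mbp, the myelin gene on the Schwann cell list, was at 3.78, 4.58, 5.10, 4.49 and 4.43.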
